A study of Homo sapiens with 24 samples.

Results

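FOS, FOSB, FOSL1, FOSL2, JUN, JUNB, JUND, EGR1, IER2 and ATF3 were followed through 24 RNA-seq libraries of prostate cancer cells. These 10 genes were picked by name, as AP-1 subunits and other immediate early genes, from the 60675 genes of the count table. The rule itself uses no measured value, but the choice was made with earlier results of these data known. Of the 10, 9 passed the filter on low counts in every fit, and FOSL1 passed in none. The libraries came from LNCaP:C4-2, a castrate resistant line that is still sensitive to the antiandrogen enzalutamide, and from 22Rv1, an enzalutamide resistant line. Each line was transfected with a pool of siRNAs against METTL3 (siMETTL3), the enzyme that places m6A on mRNA, or with a non-targeting pool (siSCR). All cells were kept in medium with charcoal-stripped serum. The siRNA was given in a pair of doses 48 h apart, and the later one came together with R1881, a synthetic androgen (1 nM), or with its ethanol vehicle, 72 h before harvest. Each of the 8 conditions had 3 libraries. Nothing in the labels says that these were separate cultures, so the p-values measure the spread between libraries, which may be technical.

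AP-1 is a dimer of basic leucine zipper proteins. JUN, JUNB and JUND pair with each other or with FOS, FOSB, FOSL1 and FOSL2, the dimers bind a short palindromic site in DNA, and ATF3, a stress-induced factor of the same class, can join or compete with them. Immediate early genes such as FOS, EGR1 and IER2 are transcribed within minutes of a growth or stress signal without new protein synthesis, through serum response factor and CREB at their promoters, and their mRNAs decay fast, so a library taken days after a treatment shows a standing level and not the first burst.

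The members differ in which of these elements their promoters hold, and stretches are shown for FOS, FOSB, FOSL2, JUN, JUND, EGR1 and ATF3. Whether the elements bear on the changes reported below was not tested. The genes lie at chr14:75278774-75282230 (FOS), chr19:45467995-45475179 (FOSB), chr11:65892049-65900573 (FOSL1), chr2:28392448-28417312 (FOSL2), chr1:58780788-58784327 (JUN), chr19:12791496-12793315 (JUNB), chr19:18279760-18281622 (JUND), chr5:138465490-138469315 (EGR1), chr19:13150415-13154908 (IER2) and chr1:212565334-212620777 (ATF3) of GRCh38. Promoter sequences of RefSeq (GRCh38.p14, the 250 bases before the start site) were found for 9 of the 10 genes and not for FOSL1. The RefSeq start can differ from the edge of the span above, which is that of the count table. The FOSL2 and JUN stretches below therefore lie inside those spans, and the FOS stretch crosses the edge of its span. FOS, FOSB and FOSL2 each held a CRE half-site, TGACGT, between positions −66 and −55 from the start (capitals), which 7.1% of the 35116 promoters in the table hold on either strand.
FOS, chr14:75278752-75278781, plus strand: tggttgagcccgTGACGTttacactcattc
FOSB, chr19:45467924-45467953, plus strand: gcaaggggcgggTGACGTaagcaggggggc
FOSL2, chr2:28392780-28392809, plus strand: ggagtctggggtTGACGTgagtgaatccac
JUN and the upstream promoter of ATF3 held the AP-1-like site TGACATCA (capitals), which 2.37% of promoters hold, and JUND held the full CRE TGACGTCA, which 1.65% hold.
JUN, chr1:58784096-58784125, minus strand: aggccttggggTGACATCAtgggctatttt
ATF3, chr1:212565273-212565302, plus strand: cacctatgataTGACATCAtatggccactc
JUND, chr19:18281804-18281833, minus strand: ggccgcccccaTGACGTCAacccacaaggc
EGR1 held 2 CArG boxes, the element of serum response factor, between 2 half-sites of the CRE on the other strand (all 4 in capitals). A CArG box was found in 1.16% of promoters.
EGR1, chr5:138465338-138465422, plus strand: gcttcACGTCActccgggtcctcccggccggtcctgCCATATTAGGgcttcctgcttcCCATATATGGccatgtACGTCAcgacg
Both strands were searched, the half-site also counts inside a full CRE, and EGR1 was the only member with a CArG box in this window. Bases farther upstream were not searched, so a member without an element here may hold it there. The AP-1 site TGACTCA, held by 4.2% of promoters, was in 0 of the members' windows, and so was the palindromic androgen response element, held by 0.00285%. TATAAA, searched on the coding strand alone and held by 6.8%, was present in FOS, FOSB, JUNB and the downstream promoter of ATF3. These are matches of letters and not measured binding.

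Library totals ran from 15716224 to 21306019 counted fragments, so the smallest readable signal, taken as 3 counts, was 0.141 to 0.191 CPM, the count scaled by library size. The targeted gene, METTL3, was lower in every siMETTL3 group. Its mean CPM changed by −33.8% in LNCaP:C4-2 without androgen, −32.8% with R1881, −46.1% in 22Rv1 without androgen and −55.5% with R1881 (exact two-sided permutation test, p = 0.1 each, the smallest that 3 libraries against 3 allow). By edgeR its log2 change in LNCaP:C4-2 was −0.61 in vehicle and −0.57 with R1881 (edgeR adjusted p = 0.0127 and 0.0256). The change with R1881 stayed under the 1.5-fold threshold used below. The one in vehicle no longer passed in 4 of 6 fits that left out 1 library. In 22Rv1 it was −0.89 in vehicle and −1.18 with R1881 (edgeR adjusted p = 1.48e-06 and 1.29e-08). METTL3 shares 388 bases of exon with TOX4 on the other strand, and the counting did not use strand. All 7 luminal markers, KLK3 among them, were above 1 CPM in both lines, and the 3 basal and 3 leukocyte markers summed to at most 1.03 and 1.62 CPM. Of 4 fibroblast markers 1 was above 1 CPM in both lines, and of 3 endothelial markers 1 in LNCaP:C4-2 alone. The fibroblast markers summed to between 38.6 and 71.98 CPM in LNCaP:C4-2 and between 15.3 and 29.4 CPM in 22Rv1. With R1881 in LNCaP:C4-2 (siSCR) 1 basal and 1 endothelial marker rose and 1 leukocyte marker fell, and the 3 lists summed to at most 1.03, 12.6 and 1.62 CPM. The same leukocyte marker was also lower with siMETTL3 in LNCaP:C4-2 in vehicle, and 1 fibroblast marker was lower with R1881 in 22Rv1 with either siRNA (−0.73 and −0.91 log2). Their part in the members' changes was not tested. The balance between GC-rich and GC-poor genes differed between libraries and, in the cells with R1881, between the siRNA pools. On a log2 scale centred on each line, the difference between the genes of highest and lowest GC content (20% each) was 0.08, −0.51 and −0.48 in the LNCaP:C4-2 libraries with siSCR and R1881. It was 0.39, 0.33 and 0.22 in those with siMETTL3 and R1881, and in 22Rv1 with R1881 it was −0.24, −0.33 and −0.42 with siSCR and 0.23, 0.06 and 0.03 with siMETTL3. With siSCR in vehicle it was 0.08, 0.05 and −0.32 in LNCaP:C4-2 and 0.24, 0.11 and −0.39 in 22Rv1. Its part in the results below was not tested, and values with an offset for GC content are given where they change a call. For the members, LNCaP:C4-2 siSCR with R1881, replicate 1, stood apart (the library that stood apart, below), with a median deviation of the 9 expressed members of 0.53 log2 above its group's mean, and the next largest in any library was −0.37. Over all genes LNCaP:C4-2 siMETTL3 in vehicle, replicate 1, deviated more, with a median absolute deviation of 0.198 log2 against 0.153. Its GC index was −0.49 against 0.32 and 0.35 in the other libraries of its group, while its members' median deviation was 0.00.

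Levels of different genes were compared per length, as RPKM (CPM per kilobase of exon). JUND led in both lines, with a mean over 12 libraries of 214 RPKM in 22Rv1 and 151 RPKM in LNCaP:C4-2. In 22Rv1 it was followed by JUN at 38.7, ATF3 at 34.1, IER2 at 23.5, JUNB at 18.6, EGR1 at 15.4, FOS at 9.18, FOSL2 at 3.84, FOSB at 0.573 and FOSL1 at 0.131 RPKM. Over the 12 libraries the ranges of neighbours overlapped from JUN down to FOSL2 (JUN 31.2 to 45.9 and ATF3 26.8 to 43.9 RPKM, for instance), whereas JUND, FOSB and FOSL1 each stood clear of the gene next to it. In LNCaP:C4-2 the order was JUND, JUNB (22.7), JUN (20.5), IER2 (11.8), FOSL2 (11.5), ATF3 (9.71), FOS (1.38), EGR1 (0.548), FOSB (0.192) and FOSL1 (0.118 RPKM). This order of means over 4 conditions did not hold in each of them. In siSCR vehicle FOS (0.220) had a lower mean than EGR1 (0.591 RPKM), and FOSL2 went from 6.204 in siSCR vehicle, below IER2 at 11.3, to 15.1 with R1881, above IER2 at 10.1 RPKM. Over the 12 libraries the ranges of neighbours overlapped from JUNB to ATF3, between FOS and EGR1 and between FOSB and FOSL1, while JUND, ATF3 and EGR1 each stood clear of the gene after it. Every Jun gene had a higher mean RPKM than every Fos family gene in both lines. The highest mean of the Fos family was that of FOS in 22Rv1 and of FOSL2 in LNCaP:C4-2. FOSL1, a Fos family member known from invasive cells, had 1 to 11 counts per library and lay near the floor throughout.

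**Figure D1:**
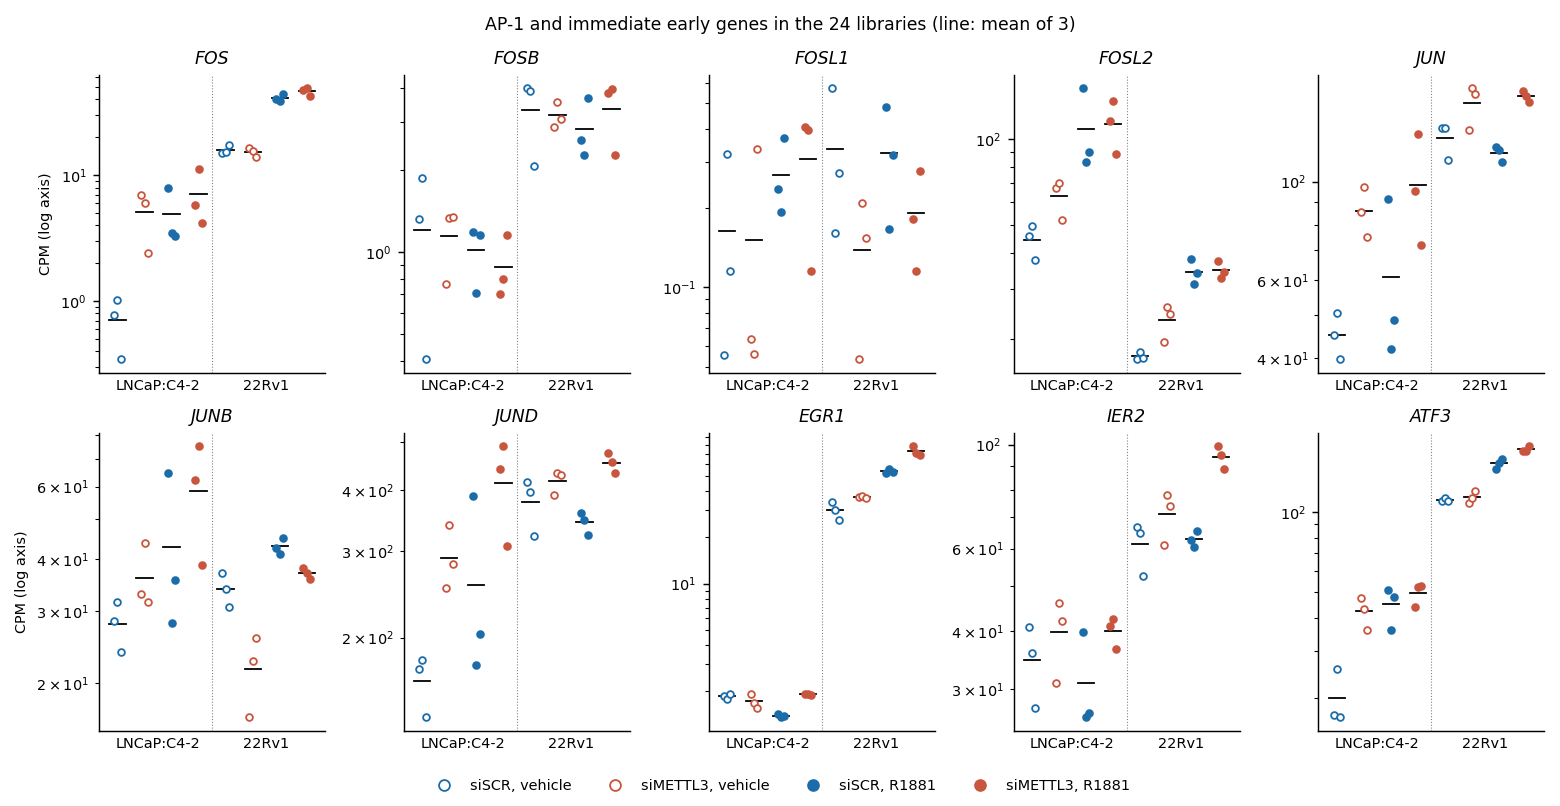
Each point is a library and each black line the mean of the 3 libraries of a condition, in CPM on a log axis, for the 10 genes. FOS and EGR1 sit higher in every 22Rv1 library than in any LNCaP:C4-2 library, and within each condition FOSL2 sits lower in 22Rv1.

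The lines were compared in cells with siSCR, in one fit of all 24 libraries. A gene was called when edgeR's quasi-likelihood test gave an adjusted p under 0.05 (Benjamini-Hochberg over all genes tested) with at least a 1.5-fold change. In vehicle 8 of the 9 tested members were called, 7 of them higher in 22Rv1 and 1 lower. The lines differ so widely that 59.2% of the 19437 genes tested were called (31.2% higher and 27.9% lower in 22Rv1), so the share of members called says little by itself, and the size of the differences is the description. With R1881, 7 members were called, 6 higher and 1 lower, against 60.1% of all genes (32.6% higher and 27.5% lower). The median log2 difference of the 9 members was 1.45 in vehicle and 1.02 with R1881, where that of all genes was 0.03 and 0.09.

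FOS and EGR1, a zinc finger factor induced by growth signals, differed most between the lines. In vehicle it was at 1.88, 1.77 and 1.91 CPM in LNCaP:C4-2 and at 33.96, 29.9 and 26.1 CPM in 22Rv1. With R1881 it was at 1.42, 1.36 and 1.37 CPM against 52.2, 55.6 and 52.9 CPM. The groups lay far apart, with log2 differences of 4.01 ± 0.12 (SE) and 5.27 ± 0.13 (edgeR adjusted p = 1.62e-20 and 1.53e-22). FOS in vehicle was at 0.773, 1.02 and 0.347 CPM in LNCaP:C4-2 and at 14.9, 15.3 and 17.5 CPM in 22Rv1, a difference of 4.45 ± 0.41 (edgeR adjusted p = 2.0e-10). The lowest LNCaP:C4-2 value rests on 6 counts. With R1881 the difference in FOS was 3.07 ± 0.30 (edgeR adjusted p = 6.6e-10).
ATF3 was higher in 22Rv1 by 2.48 ± 0.14 in vehicle, with 110, 114 and 110 CPM against 17.3, 25.7 and 16.9 CPM, and by 1.76 ± 0.13 with R1881 (edgeR adjusted p = 5.05e-15 and 2.27e-12). JUN was higher by 1.47 ± 0.20 in vehicle, FOSB by 1.45 ± 0.35 and JUND by 1.21 ± 0.19 (edgeR adjusted p = 2.35e-07, 0.000572 and 3.96e-06). IER2, a small nuclear protein induced by growth factors, was higher by 0.82 ± 0.15 (edgeR adjusted p = 3.07e-05). FOSL2 went the other way, with 45.9, 49.6 and 37.7 CPM in LNCaP:C4-2 against 17.1, 18.1 and 17.2 CPM in 22Rv1, a difference of −1.35 ± 0.18, and of −1.65 ± 0.18 with R1881 (edgeR adjusted p = 2.71e-07 and 4.03e-09). JUNB did not pass, at 0.28 ± 0.23 in vehicle and 0.00 ± 0.22 with R1881 (edgeR adjusted p = 0.263 and 0.988). JUND with R1881 was at 0.42 ± 0.19, under the fold threshold (edgeR adjusted p = 0.0487), and it was called at 0.83 without the library that stood apart, 0.75 with a replicate block, 0.64 with library size alone and 0.97 with the GC offset. Scaling by RLE size factors put the median of all genes at 0.12 in vehicle and scaling by library size alone at 0.18, or 0.29 with R1881, and 8 members in vehicle and 7 or 8 with R1881 were called under each scaling.

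**Figure D2:**
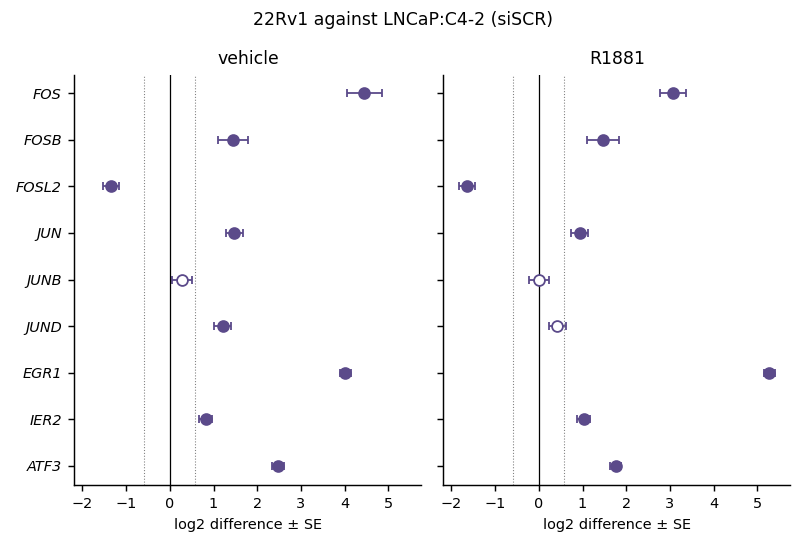
Points give the log2 difference between 22Rv1 and LNCaP:C4-2 in cells with siSCR, in vehicle and with R1881, with bars of 1 SE, filled where called, and dotted lines at 1.5-fold. EGR1 and FOS lie farthest to the right in both panels (4.01 and 4.45 in vehicle), and FOSL2 alone lies left of the dotted lines.

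R1881 raised FOS and FOSL2 in both lines. In LNCaP:C4-2 with siSCR, 3 of the 9 tested members were called, FOS, FOSL2 and ATF3, all higher with R1881, where 15.1% of the 16435 genes tested were called and 7.39% were called higher. In 22Rv1 with siSCR, 3 of 9 were called, FOS, FOSL2 and EGR1, all higher, where 13.8% of 17865 genes were called and 4.19% were called higher. The median log2 fold change of the 9 was 0.61 in LNCaP:C4-2 and 0.34 in 22Rv1, and that of all genes −0.03 and 0.00. Scaling by library size alone put the median of all genes in LNCaP:C4-2 at −0.15 and its calls at 926 higher and 1800 lower, against 1215 and 1269 with TMM, and the same number of members, 3, was called.

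FOS, the founding Fos subunit, rose in LNCaP:C4-2 from 0.773, 1.02 and 0.347 CPM to 7.996, 3.49 and 3.33 CPM with R1881. Every R1881 library was above every vehicle library, and the highest of them is the library that stood apart. The log2 fold change was 2.75 ± 0.55 (edgeR adjusted p = 0.00177), and 2.24 without that library (edgeR adjusted p = 0.00815). In 22Rv1 FOS rose from 14.9, 15.3 and 17.5 CPM to 40.4, 39.0 and 44.4 CPM, a change of 1.37 ± 0.10 with no overlap (edgeR adjusted p = 3.35e-10). The change was smaller in 22Rv1 by 1.38 ± 0.55, which did not pass (edgeR adjusted p = 0.089). This difference passed with the replicate number as a block (edgeR adjusted p = 0.0221), without the filter on low counts and with only the libraries compared. It also passed in 1 of 12 fits that left out 1 library.
FOSL2, the Fos subunit known in epithelial differentiation, rose from 45.9, 49.6 and 37.7 to 150, 83.3 and 90.0 CPM in LNCaP:C4-2. It rose from 17.1, 18.1 and 17.2 to 38.02, 31.3 and 34.04 CPM in 22Rv1. The groups did not overlap in either line, with changes of 1.27 ± 0.21 and 0.97 ± 0.11 (edgeR adjusted p = 0.000319 and 3.97e-07), the first being 0.97 without the library that stood apart. FOSB did not pass in either line, at −0.25 ± 0.44 and −0.23 ± 0.26 (edgeR adjusted p = 0.728 and 0.524), and its 7 to 35 counts per library in LNCaP:C4-2 leave the wide error.
ATF3 rose from 17.3, 25.7 and 16.9 to 51.0, 36.1 and 48.04 CPM in LNCaP:C4-2, a change of 1.16 ± 0.17 (edgeR adjusted p = 0.000133), and from 110, 114 and 110 to 146, 154 and 159 CPM in 22Rv1. The 22Rv1 change of 0.45 ± 0.07 passed the test without reaching 1.5-fold (edgeR adjusted p = 2.77e-05), and no library overlapped in either line. The response of ATF3 was smaller in 22Rv1 by 0.72 ± 0.18 (edgeR adjusted p = 0.00666).
EGR1 responded in 22Rv1, from 33.96, 29.9 and 26.1 to 52.2, 55.6 and 52.9 CPM, a change of 0.83 ± 0.09 with no overlap (edgeR adjusted p = 4.0e-07). In LNCaP:C4-2, at 1.36 to 1.42 CPM with R1881 and 1.77 to 1.91 CPM without, its change of −0.43 ± 0.22 did not pass (edgeR adjusted p = 0.179). These values rest on 21 to 34 counts per library. The responses differed between the lines by 1.26 ± 0.19 (edgeR adjusted p = 3.64e-05).
The Jun subunits did not pass the test in LNCaP:C4-2 with siSCR: JUND changed by 0.64 ± 0.24, JUNB by 0.61 ± 0.27 and JUN by 0.42 ± 0.24 (edgeR adjusted p = 0.062, 0.114 and 0.236). JUND was at 172, 180 and 138 CPM in vehicle and 388, 176 and 204 CPM with R1881, and for all 3 Jun genes the highest of the R1881 libraries is the one that stood apart. Without that library the change of JUND was 0.22 and that of JUNB 0.20. JUND passed without either of the other R1881 libraries (0.78 and 0.84) and with the GC offset (0.77), and JUNB passed without replicate 2 of R1881 (0.83, edgeR adjusted p = 0.0368) and with the offset (0.70, edgeR adjusted p = 0.0138). In 22Rv1 JUNB changed by 0.34 ± 0.12, JUN by −0.12 ± 0.09 and JUND by −0.14 ± 0.08 (edgeR adjusted p = 0.0294, 0.316 and 0.203), and JUND with the GC offset was at 0.17 (edgeR adjusted p = 0.0113). JUND's response differed between the lines by −0.79 ± 0.27 (edgeR adjusted p = 0.0471), a difference of −0.43 without the library that stood apart (edgeR adjusted p = 0.16). IER2 did not pass in either line (−0.18 ± 0.18 and 0.03 ± 0.10, edgeR adjusted p = 0.518 and 0.853). With the GC offset its change in 22Rv1 was 0.22, which passed the test without reaching 1.5-fold (edgeR adjusted p = 0.00322). The responses of 3 of the 9 members differed between the lines. The difference (22Rv1 minus LNCaP:C4-2) was positive for EGR1 and negative for ATF3 and JUND. Those of 16.8% of 19437 genes differed, 7.78% with a positive and 9.02% with a negative difference (no fold threshold).

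In cells with siMETTL3, R1881 raised FOSL2 in LNCaP:C4-2, and FOS, EGR1 and JUNB in 22Rv1. In LNCaP:C4-2 FOSL2 was the 1 member called of 9, at 0.86 ± 0.20 (edgeR adjusted p = 0.00802), where 10.6% of genes were called and 5.09% were called higher. It did not pass without siMETTL3 R1881 replicate 2 (0.70, edgeR adjusted p = 0.0505). FOS was at 7.01, 5.98 and 2.41 CPM in vehicle and at 5.83, 11.3 and 4.15 CPM with R1881, groups that overlapped (0.49 ± 0.42, edgeR adjusted p = 0.487, and −0.032 without replicate 2 of R1881). ATF3 was at 47.6, 43.3 and 36.1 CPM and at 44.1, 52.2 and 52.6 CPM, also overlapping (0.25 ± 0.17, edgeR adjusted p = 0.352). In 22Rv1, 3 members were called higher, FOS at 1.58 ± 0.10, EGR1 at 0.97 ± 0.09 and JUNB at 0.75 ± 0.12 (edgeR adjusted p = 3.24e-11, 2.8e-08 and 4.6e-05), where 13.5% of genes were called and 4.18% were called higher. On the adjusted p alone, whatever the fold, 6 members passed with siMETTL3, against 33.1% of all genes, and 5 with siSCR, against 33% of all genes. Those of the 6 that stayed under 1.5-fold were ATF3 (0.57 ± 0.07, or 0.61 and called with the GC offset), FOSL2 (0.55 ± 0.11) and IER2 (0.38 ± 0.10).

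**Figure D3:**
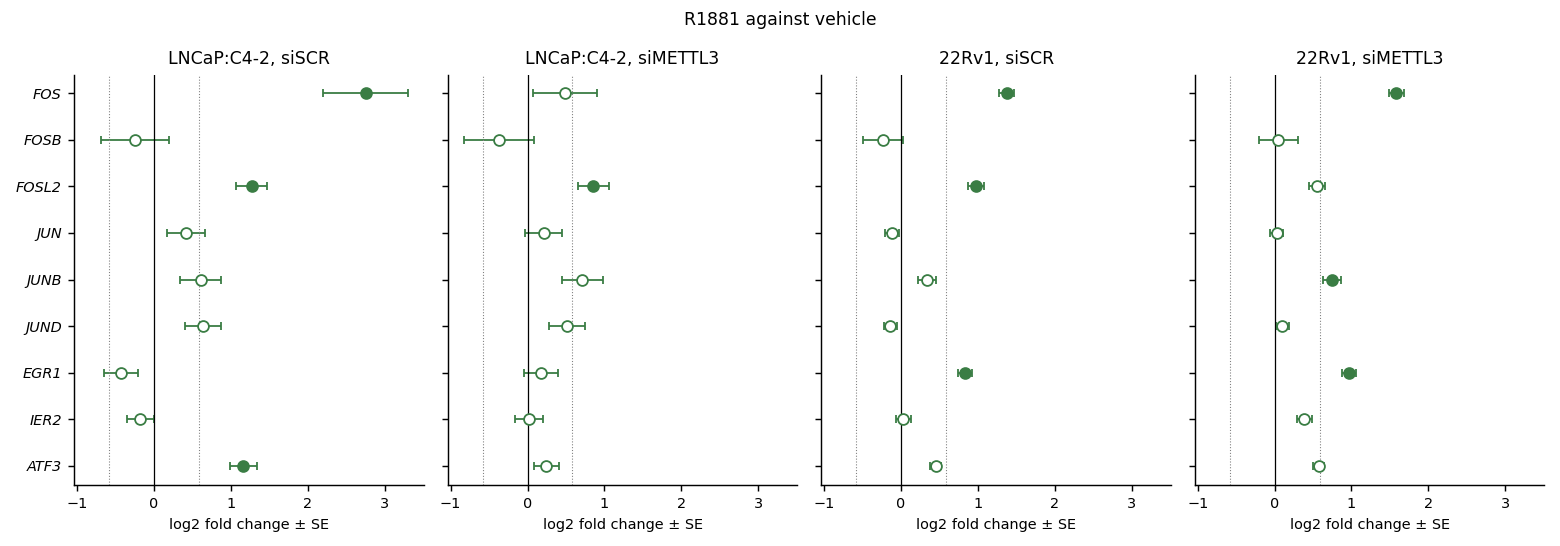
Points give the log2 fold change of R1881 against vehicle for each line and siRNA pool, with bars of 1 SE, filled where called, and dotted lines at 1.5-fold. FOS in LNCaP:C4-2 lies at 2.75 with siSCR and at 0.49 with siMETTL3, whereas in 22Rv1 it lies at 1.37 and 1.58.

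The interaction term asked whether the response to R1881 itself differed between siRNA pools. In LNCaP:C4-2 it was −2.27 ± 0.70 for FOS and −0.92 ± 0.24 for ATF3 (edgeR adjusted p = 0.314 and 0.284, unadjusted p = 0.0057 and 0.00149), and 0 of the 9 members passed. No gene passed at all (0% of 16435), while 2037 genes had an unadjusted p under 0.05 and DESeq2 called 57 genes and no member. Without the filter on low counts FOS and ATF3 passed among 351 genes, so their call depends on that setting. In 22Rv1 0 of 9 members passed (0.0168% of genes did), and the largest term among the members was −0.42 ± 0.15 for FOSL2 (edgeR adjusted p = 0.802).

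Knockdown of METTL3 raised FOS and ATF3 in LNCaP:C4-2 without androgen. They were 2 of the 9 tested members and the only ones called, both higher with siMETTL3, where 1.2% of genes were called and 0.828% were called higher. The FOS libraries were at 7.01, 5.98 and 2.41 CPM with siMETTL3 and at 0.773, 1.02 and 0.347 CPM with siSCR, and the groups did not overlap. This is a change of 2.80 ± 0.55 (edgeR adjusted p = 0.0211). ATF3 was at 47.6, 43.3 and 36.1 CPM with siMETTL3 and at 17.3, 25.7 and 16.9 CPM with siSCR, again with no overlap, a change of 1.07 ± 0.17 (edgeR adjusted p = 0.00977). These siSCR libraries are the same that serve as controls for R1881, whose changes under siSCR were 2.75 for FOS and 1.16 for ATF3. FOS did not pass without siSCR replicate 1, siSCR replicate 3 or siMETTL3 replicate 2 (2.85, 2.49 and 2.67, edgeR adjusted p = 0.112, 0.147 and 0.0897). ATF3 did not pass without the same libraries (0.97, 0.96 and 1.05, edgeR adjusted p = 0.0694, 0.0761 and 0.0523). Without siMETTL3 replicate 1, which deviated over all genes, FOS was at 2.51 and ATF3 at 0.97 (edgeR adjusted p = 0.0298 and 0.0105).
Of the Jun subunits, JUN was at 85.5, 97.0 and 75.0 CPM with siMETTL3 and at 45.0, 50.6 and 39.8 CPM with siSCR. JUND was at 252, 339 and 282 CPM against 172, 180 and 138 CPM. Neither pair of groups overlapped, and neither gene passed (0.91 ± 0.24 and 0.82 ± 0.24, edgeR adjusted p = 0.0765 and 0.0993), though both did with the GC offset (0.85 and 0.69, edgeR adjusted p = 0.0206 and 0.0148), JUN did in DESeq2 (adjusted p = 0.00975), and both did when only the 6 libraries compared were fitted (edgeR adjusted p = 0.0321 and 0.0376, where FOS and ATF3 both had 0.0376). FOSL2, at 0.49 ± 0.20, JUNB, at 0.36 ± 0.27, IER2, at 0.18 ± 0.18, FOSB, at −0.08 ± 0.43, and EGR1, at −0.13 ± 0.22, did not pass (edgeR adjusted p from 0.253 to 0.949). The median of the 9 was 0.49, where that of all genes was 0.00.

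In 22Rv1 in vehicle FOS and ATF3 did not pass, and JUNB fell. FOS was at 16.4, 15.6 and 13.9 CPM with siMETTL3 and at 14.9, 15.3 and 17.5 CPM with siSCR, overlapping groups (−0.05 ± 0.10, edgeR adjusted p = 0.837). ATF3 was at 108, 113 and 121 CPM against 110, 114 and 110 CPM (0.04 ± 0.07, edgeR adjusted p = 0.844). The knockdown effect differed between the lines for both genes, by −2.87 ± 0.54 for FOS and −1.05 ± 0.18 for ATF3 (edgeR adjusted p = 0.0115 and 0.00741). They were the 2 of 9 members that passed this test, both with the smaller effect in 22Rv1. Of 19437 genes 0.458% passed, and 0.37% passed with a negative difference (22Rv1 minus LNCaP:C4-2), whichever effect was larger in size. The difference for FOS did not pass without LNCaP:C4-2 siSCR replicate 1 or 3 in vehicle (−2.89 and −2.54, edgeR adjusted p = 0.0607 and 0.0666), and that for ATF3 did not without replicate 1 (−0.93, edgeR adjusted p = 0.0546). With the GC offset the differences for JUNB and JUND also passed (−1.02 and −0.66, edgeR adjusted p = 0.0168 and 0.0299).
JUNB, a Jun subunit that often restrains JUN, was at 16.6, 22.6 and 25.7 CPM with siMETTL3 and at 37.1, 33.9 and 30.6 CPM with siSCR in 22Rv1, groups that did not overlap. It was the 1 member called of 9, at −0.64 ± 0.12 (edgeR adjusted p = 0.0116), where 0.202% of 17865 genes were called and 0.14% were called lower. Its change was −0.78 with the GC offset, and its adjusted p was 0.174 in a fit of the 6 libraries compared. It did not pass without siSCR replicate 1 or 2 or siMETTL3 replicate 1 (−0.56, −0.64 and −0.48, edgeR adjusted p = 0.0311, 0.0511 and 0.00624, the first and the last under 1.5-fold). JUNB shares 259 bases of exon with the antisense gene HOOK2, which had 629 to 2141 counts, and the counting did not use strand. The remaining 6 tested members changed by −0.06 to 0.42, FOSL2 the most (edgeR adjusted p = 0.0868), and none passed.

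**Figure D4:**
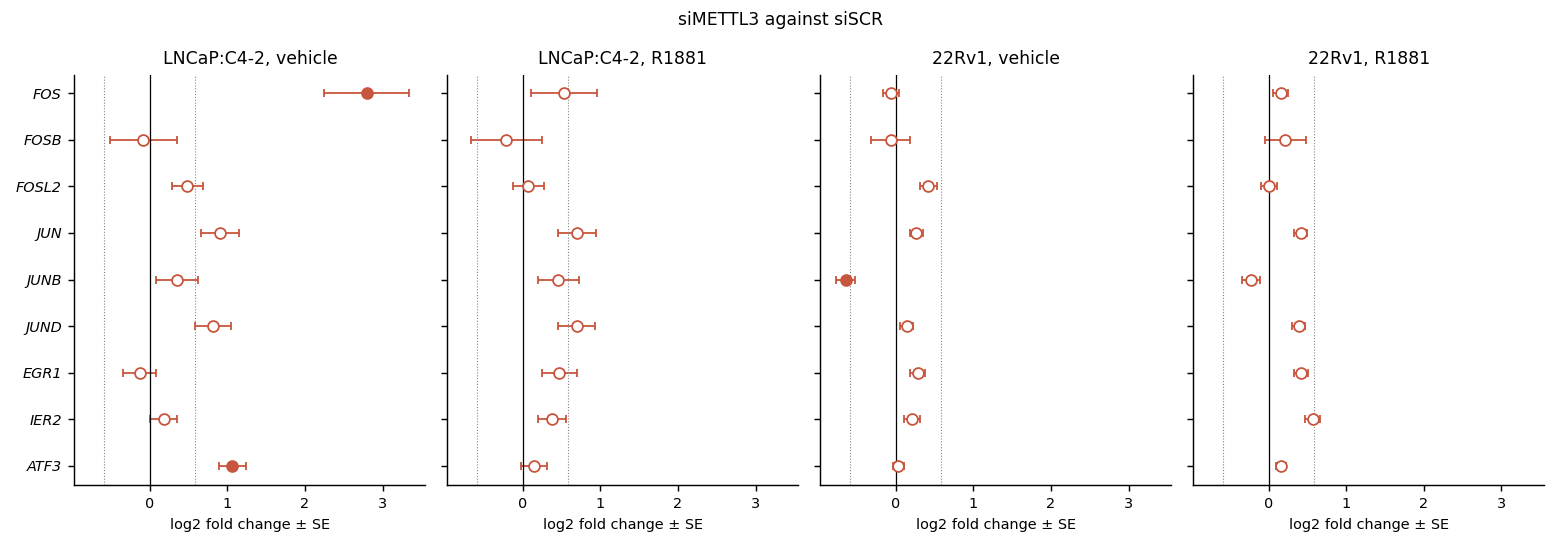
Points give the log2 fold change of siMETTL3 against siSCR for each line and treatment, with bars of 1 SE, filled where called, and dotted lines at 1.5-fold. FOS (2.80) and ATF3 (1.07) are filled in LNCaP:C4-2 in vehicle, JUNB (−0.64) is filled in 22Rv1 in vehicle, and no point is filled with R1881.

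With R1881 none of the 9 tested members was called between siMETTL3 and siSCR in either line. The median log2 fold change of the 9 was 0.46 in LNCaP:C4-2 and 0.22 in 22Rv1, with 8 of 9 higher in each. That of all genes was 0.00 and −0.02. In LNCaP:C4-2 0.7% of genes were called in edgeR, and 4702 of 16435 had an unadjusted p under 0.05, among them EGR1, JUN and JUND. DESeq2 called 1 member, JUN, at 0.69 (adjusted p = 0.0417). FOS was at 5.83, 11.3 and 4.15 CPM with siMETTL3 and at 7.996, 3.49 and 3.33 CPM with siSCR, and ATF3 at 44.1, 52.2 and 52.6 against 51.0, 36.1 and 48.04 CPM. Both pairs of groups overlapped, with changes of 0.53 ± 0.42 and 0.15 ± 0.17 (edgeR adjusted p = 0.41 and 0.568). Without the library that stood apart JUN, JUND and JUNB were called, at 1.10, 1.10 and 0.86 (edgeR adjusted p = 0.00854, 0.00629 and 0.0209). With all libraries they were at 0.70 ± 0.24, 0.70 ± 0.24 and 0.46 ± 0.26, and with the GC offset at 0.51, 0.17 and 0.05. In 22Rv1 3.29% of genes were called. IER2 was at 99.2, 95.0 and 88.7 CPM with siMETTL3 and at 62.6, 60.4 and 65.5 CPM with siSCR, groups well apart, and its change of 0.57 ± 0.10 passed the test just under 1.5-fold (edgeR adjusted p = 0.00161). EGR1 (0.42 ± 0.09), JUN (0.41 ± 0.09) and JUND (0.39 ± 0.08) also passed without reaching that fold (edgeR adjusted p = 0.00463, 0.00469 and 0.00553). These 4 of 9 compare with 16.2% of all genes that passed on the adjusted p alone. The knockdown effect with R1881 did not differ detectably between the lines for any member (0 of 9, where 0.0926% of genes passed, and 1469 genes had an unadjusted p under 0.05, JUNB among them).

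The members are rich in G and C, and those richest in them moved most with the GC offset. JUND lies at the 99.6th percentile of expressed genes for GC content, JUNB at the 96.1th and IER2 at the 90.2th, while FOS lies at the 64.8th and ATF3 at the 45.8th. In 22Rv1 with R1881 the knockdown change of JUND went from 0.39 to 0.05 with the offset (edgeR adjusted p = 0.609), that of IER2 from 0.57 to 0.32 and that of JUNB from −0.23 to −0.52. In LNCaP:C4-2 with R1881 IER2 went from 0.38 to 0.04. The knockdown changes of FOS and ATF3 in LNCaP:C4-2 in vehicle were 2.77 and 1.08 with the offset (edgeR adjusted p = 0.00757 and 0.00144).

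**Figure D5:**
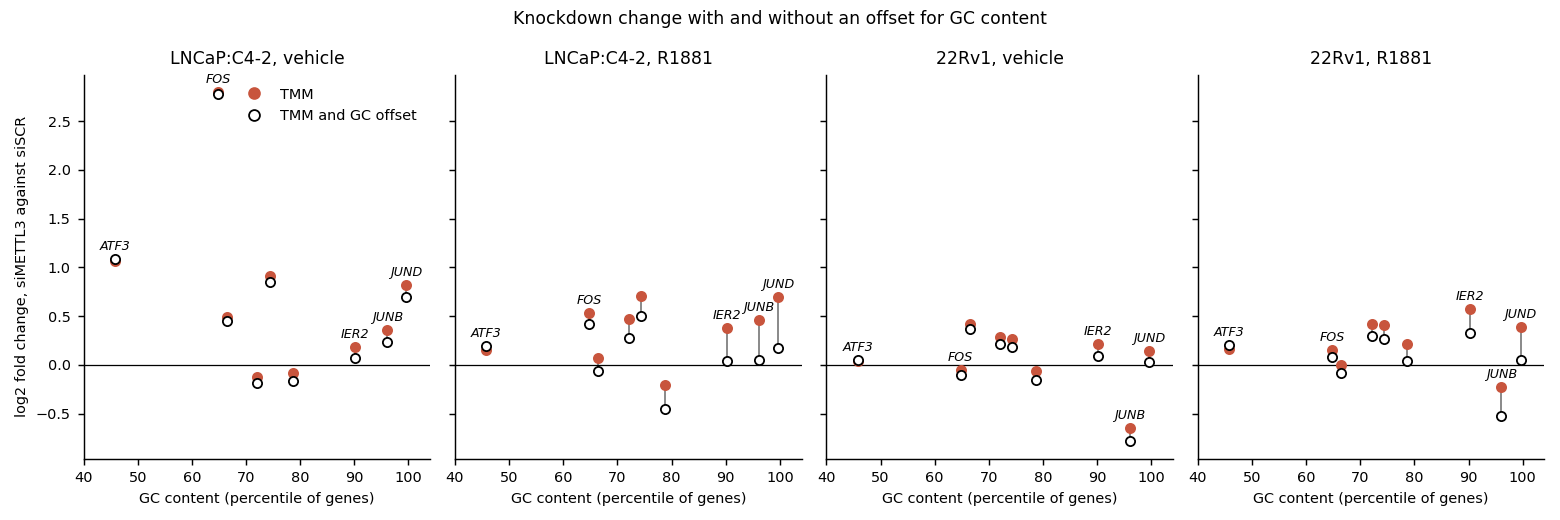
Filled points give the log2 fold change of siMETTL3 against siSCR and open points the same with an offset for GC content, plotted against each gene's GC percentile among expressed genes, for each line and treatment. In LNCaP:C4-2 in vehicle FOS and ATF3 hardly move (2.80 to 2.77 and 1.07 to 1.08). With R1881 FOS goes from 0.53 to 0.42 in LNCaP:C4-2 and from 0.16 to 0.08 in 22Rv1. JUND moves most with R1881 (0.70 to 0.17 in LNCaP:C4-2, 0.39 to 0.05 in 22Rv1).

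The members did not share one pattern over the libraries. With each line's mean removed, the log2 CPM of ATF3 followed that of FOS with Pearson's r = 0.94 and Spearman's rho = 0.84 over 24 libraries, and FOSL2 with r = 0.86 and rho = 0.80. These libraries share the conditions of the design, so the values are descriptions. JUND and JUN followed FOS in the 12 LNCaP:C4-2 libraries (r = 0.84 and 0.83) and not in the 12 of 22Rv1 (r = 0.01 and −0.05). EGR1 did the reverse, with r = 0.91 in 22Rv1 and −0.16 in LNCaP:C4-2. FOSB had r = 0.03 over all 24. By r over all 24, among 14985 genes and counting FOS itself, ATF3 ranked 7 and FOSL2 50. JUNB ranked 352, JUND 478, JUN 659, EGR1 3441, IER2 3461 and FOSB 7463, so many genes outside the list followed FOS more closely. Among the 14985 genes tested in both lines, the 5 outside the list most like FOS were PGK1 (r = 0.97, rho = 0.91), KLHL24 (0.96, 0.88), HK2 (0.96, 0.85), C4orf3 (0.95, 0.94) and SLC50A1 (0.94, 0.88). PGK1 and HK2 encode glycolytic enzymes and SLC50A1 a sugar transporter.

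Other genes of the pathway were read from lists set by name. Of 29 other immediate early genes, 24 were tested in LNCaP:C4-2 and 28 in 22Rv1. R1881 with siSCR raised 7 and lowered 5 in LNCaP:C4-2 (median 0.31) and raised 3 and lowered 6 in 22Rv1 (median −0.04), where 15.1% and 13.8% of all genes were called. In LNCaP:C4-2 the largest were SGK1, a kinase induced by steroids (3.26 ± 0.24), the orphan receptor NR4A1 (2.11 ± 0.21), the stress gene GADD45B (1.91 ± 0.30) and DUSP1, a phosphatase that switches off MAP kinases (1.86 ± 0.36). In 22Rv1 RHOB, a small GTPase, rose by 1.75 ± 0.07 from 103 ± 6.57 to 347 ± 20.03 CPM (SD, n = 3), KLF6 rose by 1.25 ± 0.07, and CCN2 and NFKBIZ changed by −1.81 ± 0.21 and −1.70 ± 0.08. The responses of SGK1 (−2.94 ± 0.53), ARC (−2.40 ± 0.43), DUSP1 (−2.19 ± 0.39) and NR4A1 (−1.95 ± 0.26) were smaller in 22Rv1. With siMETTL3, R1881 raised 9 and lowered 2 in LNCaP:C4-2, and raised 4 and lowered 7 in 22Rv1, where 10.6% and 13.5% of all genes were called. The knockdown called GADD45B in LNCaP:C4-2 in vehicle (1.30 ± 0.30, from 3.58 ± 0.384 to 8.97 ± 1.71 CPM) and the shear-stress factor KLF2 with R1881 (1.19 ± 0.22), and 0 of 28 in 22Rv1 in either treatment. Of all genes it called 1.2% in vehicle and 0.7% with R1881 in LNCaP:C4-2, and 0.202% and 3.29% in 22Rv1.
Among 15 leucine zipper partners, 13 were tested in LNCaP:C4-2 and 14 in 22Rv1. MAF, a large Maf factor, rose with R1881 in LNCaP:C4-2 from 1.65 ± 0.128 to 79.7 ± 7.73 CPM (SD, n = 3) with siSCR (5.58 ± 0.14, SE) and from 0.617 ± 0.109 to 55.0 ± 3.94 CPM with siMETTL3 (6.47 ± 0.16). MAFF, a small Maf without an activation domain, rose with R1881 (2.18 ± 0.38) and with the knockdown in vehicle (1.78 ± 0.38, edgeR adjusted p = 0.0293), and these comparisons share the siSCR vehicle libraries. In vehicle the knockdown in LNCaP:C4-2 called 1 partner higher and 2 lower, MAF among the lower ones (−1.41 ± 0.22), where 1.2% of all genes were called. In 22Rv1 the knockdown called 0 of 14 in vehicle and MAFK with R1881 (0.64 ± 0.14), where 0.202% and 3.29% of all genes were called. Between the lines in vehicle, where 59.2% of all genes were called, 4 of 14 partners were higher and 2 lower in 22Rv1, CREB5 among the higher ones (7.31 ± 0.29, 21.7 ± 1.09 against 0.127 ± 0.113 CPM).
Of the 14 upstream kinases and factors, the knockdown called 0 in each of the 4 comparisons, where 0.202% to 3.29% of all genes were called. In LNCaP:C4-2 with siSCR, R1881 called 1 higher, ELK4 (1.10 ± 0.14), and 1 lower, ELK3 (−0.68 ± 0.19), where 15.1% of all genes were called. ELK4 and ELK3 are ternary complex factors that work beside serum response factor. Between the lines in vehicle 1 was higher and 4 were lower in 22Rv1, against the same 59.2% of all genes, RPS6KA1 the most (−1.56 ± 0.09).
Of 20 genes with known AP-1 sites, 8 were tested in LNCaP:C4-2 and 11 in 22Rv1. VIM, an intermediate filament, was the 1 called with the knockdown in LNCaP:C4-2 in vehicle (0.95 ± 0.22, 3.41 ± 1.01 to 6.70 ± 1.51 CPM), where 1.2% of all genes were called. VIM rose with R1881 as well (1.20 ± 0.22). The 22Rv1 knockdown called 0 of 11 in vehicle and HMOX1 with R1881 (0.97 ± 0.14), where 0.202% and 3.29% of all genes were called. R1881 raised HBEGF, a growth factor, in 22Rv1 with siSCR (1.47 ± 0.16) and lowered TGFB1 (−1.07 ± 0.15). CD44, a cell surface receptor, was at 34.6 ± 2.79 CPM in 22Rv1 in vehicle and had 0 counts in each LNCaP:C4-2 siSCR vehicle library, at least 208-fold higher against 3 counts per library. With R1881 it reached 4 counts in LNCaP:C4-2. Of the 8 heat shock genes, which mark handling stress, the knockdown called 0 in any of the 4 comparisons, with medians from −0.06 to 0.15, where 0.202% to 3.29% of all genes were called. R1881 called 2 higher in 22Rv1 with siSCR (HSPA8 at 0.98 ± 0.09 and HSPH1 at 0.73 ± 0.10) and 1 with siMETTL3, where 13.8% and 13.5% of all genes were called. In LNCaP:C4-2 it called 0 with siSCR and 1 with siMETTL3, where 15.1% and 10.6% were. The R1881 response of 3 differed between the lines, against 16.8% of all genes. In vehicle 1 was higher and 7 were lower in 22Rv1, where 59.2% of all genes were called. Their part in the members' differences was not tested.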

How the data were processed

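Per the labels and the methods of the study, the authors trimmed reads with Trim Galore, aligned them with STAR to GRCh38 and used featureCounts 1.5.0-p1 for gene counts of read pairs (Ensembl release 83, no strand option). The deposited values are raw counts, with an exon length for each of 60675 genes. Replicate libraries were not pooled.

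Counts were tested with edgeR 4.0.16 in R 4.3.3 (TMM, filterByExpr with a count minimum of 10 and a total minimum of 15, glmQLFit and glmQLFTest, Benjamini-Hochberg adjustment over all genes tested). The 12 libraries of a line were fitted together (8 residual degrees of freedom), and all 24 for comparisons between lines (16). Calls needed an adjusted p under 0.05 and 1.5-fold. Interactions and differences of effects needed the adjusted p alone. SE is the absolute log2 fold change over the square root of F. CPM and RPKM used TMM-scaled totals of all 24 libraries. The GC offset was a spline with 5 degrees of freedom per library, chosen after the data were seen. Fits were tested on simulated data. Alternatives were DESeq2 1.42.0, other scalings and filters, a replicate block, only the libraries compared, and leaving out each library. Duplicate libraries were checked for and not found. Names came from GENCODE 44 by gene ID.

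The 10 genes and the lists were chosen with earlier results of these data known. Named list genes are up to 4 called ones per list and comparison with the largest change, and the 5 genes most like FOS by Pearson's r. The floor of 3 counts covers counting error only. Some genes of the lists are not reported here by name.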

Additional observations from a re-analysis of the deposited data

Results flagged for a closer look

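For 5 results the lines differed in a test of the difference itself. The knockdown effect in vehicle was smaller in 22Rv1 than in LNCaP:C4-2 for FOS (difference −2.87 log2, edgeR adjusted p = 0.0115) and for ATF3 (−1.05, edgeR adjusted p = 0.00741). With siMETTL3 both genes were higher in 3 of 3 LNCaP:C4-2 libraries than in any siSCR library, and in 22Rv1 the groups overlapped. The response to R1881 with siSCR was larger in 22Rv1 for EGR1 (1.26, edgeR adjusted p = 3.64e-05) and smaller for ATF3 (−0.72, edgeR adjusted p = 0.00666) and JUND (−0.79, edgeR adjusted p = 0.0471). The JUND difference did not pass in 7 of the 12 fits that left out 1 library (edgeR adjusted p up to 0.16). Nor did it with library size alone or with only the libraries compared. The knockdown difference did not pass in 2 of 12 such leave-one-out fits for FOS and 1 of 12 for ATF3 (edgeR adjusted p up to 0.0666 and 0.0546). For ATF3 it also did not pass with only the libraries compared (edgeR adjusted p = 0.0631).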

How the results depend on the processing

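The number of members called moved with the filter on low counts, the GC offset (chosen after the data were seen) and the libraries fitted. Unless a value shows it, the cause was not tested. Without a filter on low counts it was 4 for the knockdown in LNCaP:C4-2 in vehicle and 2 with R1881, 5 and 2 for R1881 in LNCaP:C4-2 with siSCR and siMETTL3, 2 for its interaction, 1 for the knockdown in 22Rv1 with R1881, and 5, 1 and 5 for the differences between lines in the knockdown effect in vehicle, with R1881 and in the R1881 effect. Requiring 10 counts in every library gave 1 for the knockdown in LNCaP:C4-2 in vehicle, 1 in 22Rv1 with R1881 and 1 for the line difference in vehicle, and removed FOS from LNCaP:C4-2 fits. The GC offset gave 4, 5 and 4 for the vehicle knockdown and the siSCR R1881 response in LNCaP:C4-2 and the vehicle line difference, METTL3 at −0.58 in LNCaP:C4-2 in vehicle, and turned JUND with R1881 in 22Rv1 to 0.17. Fitting only the libraries compared gave 4 and 0 for the vehicle knockdown in LNCaP:C4-2 and 22Rv1, 1 in 22Rv1 with R1881, 1 for the vehicle line difference (FOS), and METTL3 at −0.61 (edgeR adjusted p = 0.054) in LNCaP:C4-2 in vehicle. DESeq2 gave 1 for the knockdown in LNCaP:C4-2 with R1881, and library size alone 1 in 22Rv1 with R1881. With no fold threshold 4, 5 and 6 members passed in 22Rv1 for the knockdown with R1881 and for R1881 with siSCR and siMETTL3, and METTL3 in LNCaP:C4-2 with R1881 (−0.57).
Leaving out 1 library at a time gave 0 to 2 members for the knockdown in LNCaP:C4-2 in vehicle and 0 to 3 with R1881, 3 to 5 and 0 to 2 for R1881 in LNCaP:C4-2 with siSCR and siMETTL3, 0 to 1 for the knockdown in 22Rv1 in either treatment, 3 and 3 to 5 for R1881 in 22Rv1, 8 and 7 to 8 between the lines, 0 to 2 and 0 for the line differences of the knockdown, and 2 to 4 for that of R1881. FOS with R1881 and siMETTL3 in LNCaP:C4-2 ran from −0.032 to 0.76. METTL3 ran from −0.66 to −0.55 and from −0.65 to −0.52 in LNCaP:C4-2 (edgeR adjusted p up to 0.0982 and 0.162), and from −0.91 to −0.87 and −1.26 to −1.14 in 22Rv1.
Same-numbered libraries did not deviate together (mean correlation −0.00913, from −0.528 to 0.416, over 18 pairs in LNCaP:C4-2, and −0.00657, from −0.415 to 0.316, over 18 in 22Rv1). With a block for the replicate number the members called were 2 and 0 for the knockdown in LNCaP:C4-2, 3 and 1 for R1881 there, 1 and 0 for the knockdown in 22Rv1, 3 and 3 for R1881 there, 8 and 8 (7 as reported) between the lines, and 2, 0 and 4 (3 as reported) for the line differences, the added calls being JUND with R1881 and the R1881 difference of FOS. The genes called among all tested fell from 115 to 39 for the knockdown in LNCaP:C4-2 with R1881 and from 18 to 5 for its line difference under the block.
Over all settings the genes called ran from 112 to 464 (197 as reported) and 39 to 776 (115) for the knockdown in LNCaP:C4-2, 14 to 100 (36) and 413 to 2897 (587) in 22Rv1, 1929 to 4081 (2484), 1331 to 2728 (1747), 1969 to 5903 (2471) and 1896 to 5917 (2406) for R1881, 0 to 351 (0) and 3 to 79 (3) for the interactions, 6371 to 14360 (11497) and 6641 to 14573 (11689) between the lines, and 15 to 611 (89), 5 to 93 (18) and 2894 to 4934 (3266) for the line differences. With the GC offset the share of calls that were higher went from 40% to 29.2% for the knockdown in LNCaP:C4-2 with R1881, from 30.6% to 43.4% in 22Rv1 in vehicle, and from 19.1% to 39.6% and 44.4% to 57.5% for its line differences in vehicle and with R1881. For single members outside the leave-one-out fits, only changes that were called or reached 1 SE as reported were counted. Of these values 755 kept their direction and side of the threshold, 46 came to pass it, 4 no longer did and 1 reversed. Smaller changes were not counted, and some of them reversed. With R1881 in LNCaP:C4-2 the knockdown change of FOSL2 went from 0.07 to −0.06 with the GC offset. With 3 libraries a group and FOS at 6 to 19 counts in the LNCaP:C4-2 siSCR vehicle libraries, its fold changes there carry the largest errors of the members called.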
